A study of Triticum aestivum with 21 samples.

Results

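Actin forms the filaments that carry organelles, guide the division plane of plant cells and drive the growth of the pollen tube. The GeneChip Wheat Genome Array, an oligonucleotide array on which each transcript is measured by 1 or more groups of probes called probe sets, holds control probe sets for a wheat actin. Its name in the table begins with AFFX-Ta-actin, and every row with that prefix was taken. This gave 4 of 61290 rows. They were chosen by their intensities in mature anthers against the other stages, so that contrast is described here without a test. The names place AFFX-Ta-actin-3_at at the 3′ end of the transcript, AFFX-Ta-actin-5_at at the 5′ end, and AFFX-Ta-actin-M_at and AFFX-Ta-actin-M_x_at in the middle. The ending _x marks a set with probes that can also match other sequences. All 4 sets report on actin, so they are not independent genes. The actin gene and chromosome that they were designed on are not given in the sources used here.

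The samples were whole anthers of wild-type bread wheat (Triticum aestivum cv. Chinese Spring) with no treatment. The 7 stages ran from anthers before meiosis (PM) through prophase I as far as pachytene (LP), diplotene up to anaphase I (DA), both telophases with the steps between them (TT), the tetrad stage (T) and anthers with immature pollen (IP) to anthers at maturity (MAN), with 3 arrays per stage and 21 in all. Anthers of a stage were pooled, and the Methods describe the 3 arrays as technical replicates, so every SD, SE and p reflects array-to-array variation within 1 RNA pool, and the variation among plants was not measured. An anther holds wall layers, tapetum (the layer that nourishes the pollen) and meiocytes or pollen, and with whole anthers fewer cells of a type and less RNA per cell cannot be told apart.

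Plants carry families of actin genes. In Arabidopsis some members are used in vegetative tissue and others in pollen, where actin is abundant at maturity and is organised by binding proteins such as profilin. Actin is also a common reference transcript, and sets along a control transcript are used to judge RNA integrity. Labelling starts at the poly-A tail, and 2 rounds of amplification, as used here, shorten the copies at their 5′ end.

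Each actin set stayed within a narrow range through meiosis and into immature pollen and was far higher in mature anthers. Before MAN only the 3′ set was low among all rows of its array, while the 5′ set lay at a median percentile of 60.9, the middle set at 65.6 and the _x set at 52.6. From IP to MAN the 3′ set went from a geometric mean intensity of 23.6 to 10755.1, the middle set from 112.7 to 6899.4, the middle set with the _x ending from 54.3 to 4023.5, and the 5′ set from 75.4 to 1165.9. Levels below are log2 of the intensity that the authors made with RMA. Following the study's own boundary, a mean above 5 was taken as expressed.

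The 3′ set, AFFX-Ta-actin-3_at, had levels of 13.48, 13.37 and 13.33 on MAN replicates 1, 2 and 3. On IP replicates 1, 2 and 3 they were 4.54, 4.57 and 4.57. In the earlier stages, each in the order of replicates 1 to 3, they were 4.35, 4.32 and 4.17 in PM, 4.45, 4.50 and 4.52 in LP, 4.45, 4.39 and 4.69 in DA, 4.41, 4.31 and 4.50 in TT, and 4.55, 4.40 and 4.42 in T. All 18 arrays before MAN thus lay below 5, and the 3 MAN arrays stood far above them. The measured change from IP to MAN was 8.83 on the log2 scale (456-fold). The level in IP was under the boundary, so this value is not read as an exact size. Scaled to the hybridization controls described below, it was 7.69. The gap between the lowest MAN array and the highest other array was 8.65. The set lay between the 21.3 and 33.3 percentile of all rows on the arrays before MAN and at the 99.5 to 99.6 percentile in MAN.

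The 5′ set, AFFX-Ta-actin-5_at, changed less. Its levels were 10.43, 10.05 and 10.08 on the 3 MAN arrays and 6.15, 6.26 and 6.31 on the 3 IP arrays. They were 6.36, 6.16 and 6.16 in PM, 6.47, 6.51 and 6.47 in LP, 6.18, 6.07 and 6.34 in DA, 6.43, 6.76 and 6.61 in TT, and 6.42, 6.64 and 6.39 in T. No MAN array overlapped any other array, and the gap to the highest of them, TT replicate 2, was 3.28. The difference between MAN and IP was 3.95 (15.5-fold).

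The middle set, AFFX-Ta-actin-M_at, had levels of 12.78, 12.60 and 12.88 in MAN and 6.78, 6.86 and 6.80 in IP. In PM they were 6.84, 6.74 and 6.56, in LP 6.85, 6.84 and 7.01, in DA 6.67, 6.72 and 6.62, in TT 6.55, 6.53 and 6.84, and in T 6.76, 6.80 and 6.95. MAN stood above IP by 5.94 (61.3-fold), and the arrays were separated by a gap of 5.59. The companion set AFFX-Ta-actin-M_x_at followed the same course, with 12.05, 11.80 and 12.07 in MAN and 5.59, 5.87 and 5.83 in IP. It was at 5.87, 5.52 and 5.53 in PM, 5.74, 5.83 and 5.86 in LP, 5.66, 5.62 and 5.82 in DA, 5.61, 5.32 and 5.83 in TT, and 5.75, 5.78 and 5.93 in T. Over the 18 arrays before MAN it thus ran from 5.32 on TT replicate 2 to 5.93 on T replicate 3. The mean was 6.21 higher in MAN than in IP (74.1-fold).

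**Figure D1:**
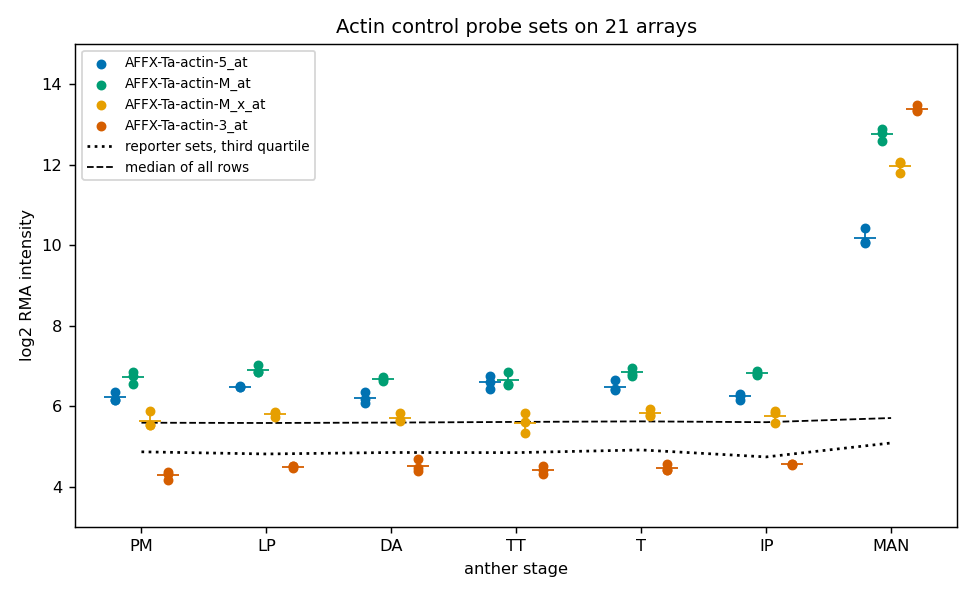
Log2 RMA intensity of the 4 actin probe sets (vertical axis) on the 21 arrays by anther stage (horizontal axis). Points are arrays, horizontal ticks with bars are the mean and SD (n = 3), the dashed line is the median of all rows and the dotted line the upper quartile of the reporter sets. In MAN the 3′ set lay at 13.33 to 13.48 and the 5′ set at 10.05 to 10.43, while before MAN the 3′ set was alone below both lines.

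The array also carries 64 probe sets for reporter sequences foreign to wild-type wheat, which serve as a reading of background. Their upper quartile was 4.71 to 5.14 across the 21 arrays and their median 3.88 to 4.19, although 1 of them read as high as 14.04. The 3′ actin set exceeded 33 to 46 of the 64 before MAN. The other 3 sets lay above that upper quartile and above the boundary of 5, although some reporter sets read higher than they did. The 5′ set exceeded 57 to 60 of the reporter sets, the middle set 59 to 62 and the _x set 55 to 57. In MAN each actin set exceeded 63 of 64. Of the 28 stage means, 22 lay above 5, and the other 6 were those of the 3′ set before MAN. The count depends on the boundary, as 28 lay above 4 and 16 above 6. The _x set, with stage means of 5.59 to 5.82 before MAN, was under 6 in each of those stages.

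Every MAN array lay above every other array in all 4 sets. The same held for 21% of all rows (12870 of 61290). A change from IP to MAN as high as that of the 3′ set was found in 89 rows, or 0.145% of the table. The corresponding numbers were 331 rows for AFFX-Ta-actin-M_x_at, 365 for AFFX-Ta-actin-M_at and 718 (1.17%) for the 5′ set. These ranks describe the members, which were chosen for this change, and limma called 64.3% of all rows different between IP and MAN, with 38.7% higher in MAN.

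The measured change differed along the transcript, in the order 3′ end, middle, 5′ end, on each of the MAN arrays. Relative to the IP mean, the 3′ set stood higher by 8.92, 8.81 and 8.77 on MAN replicates 1, 2 and 3. The middle set stood higher by 5.96, 5.78 and 6.07, and the 5′ set by 4.20, 3.81 and 3.85. No order was read from the levels of different sets on an array, since each set has its own probes, but the difference between sets can be followed from array to array. The 3′ minus 5′ difference was -1.61 to -2.45 on the 18 arrays before MAN (median -1.95), with the 3′ set under the boundary of 5 on each of them. On the 3 MAN arrays it was 3.04, 3.33 and 3.25. Its mean went from -1.68 ± 0.0648 (SD, n = 3) in IP to 3.21 ± 0.146 in MAN. The measured shift was 4.88, which like the change of the 3′ set is not read as an exact size. The difference between both middle sets moved less, from 0.80 to 1.21 on the arrays before MAN (median 1.02) to 0.72 to 0.81 in MAN.

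Other control transcripts carry sets at the same 3 positions. Poly-A RNAs of bacterial genes are added before amplification, and their 3′ minus 5′ difference shifted from IP to MAN by 0.94 for dap, 0.33 for lys, 0.57 for phe and 1.25 for thr. In 3 of the 4 the MAN arrays lay above all 18 others, the same direction as in actin. The difference in dap was 6.25 to 6.35 on the MAN arrays and 4.86 to 5.62 on the others, in thr 5.30 to 5.75 and 3.73 to 4.81, and in phe 3.22 to 3.52 and 2.16 to 3.07. The arrays overlapped in lys, at 2.85 to 3.49 and 1.73 to 3.41. The same shift was 0.53 for ubiquitin, a protein tag for degradation, and 0.28 for ef1a, an elongation factor of translation. In both, the MAN arrays overlapped the 18 others. The difference in ubiquitin was 0.21 to 0.49 in MAN and -0.57 to 1.15 on the others, in ef1a 0.24 to 0.77 and 0.08 to 0.89. The shift was -3.67 for CYP86, a cytochrome P450. For sucrose synthase, which cleaves sucrose, the measured shift was -3.21, and for G-6-PDH, of the pentose phosphate pathway, -1.86. The 5′ sets of both were under 5 in MAN, at 3.90 and 4.80, so these shifts are not read as sizes. The 3′ set of gapdh, a glycolytic enzyme, was under 5 in both stages, and no shift was read from it. In sucrose synthase IP replicate 1 stood at 5.40 and the other IP arrays at 8.71 and 8.45. Without IP replicate 1, a setting added after the data were seen, the shift of sucrose synthase was -4.27. In that setting the shift was -2.32 for G-6-PDH, 0.10 for lys, 0.35 for ubiquitin and 4.92 for actin. The part of amplification in the uneven rise of actin was not tested. The poly-A controls as a whole lay at 7.30 to 7.51 in MAN and at 6.34 to 7.54 on the other arrays.

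**Figure D2:**
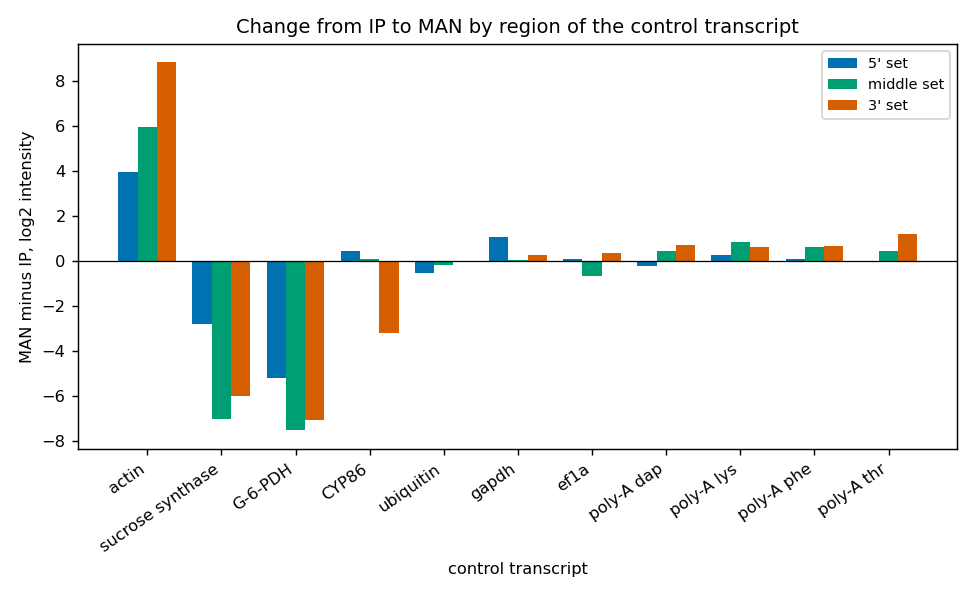
Change in log2 intensity from IP to MAN (vertical axis, difference between means of 3 arrays) for the 5′, middle and 3′ sets of 11 control transcripts (horizontal axis). Bars start at 0 and carry no error bars, and for actin they rise from 3.95 (5′) through 5.94 (middle) to 8.83 (3′).

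**Figure D3:**
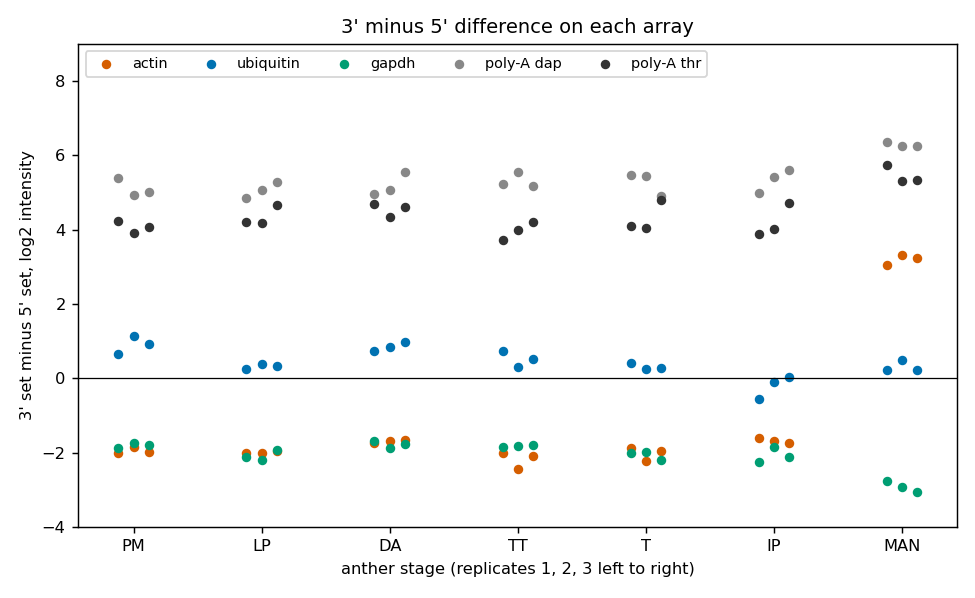
The 3′ minus 5′ difference in log2 intensity (vertical axis) on each array by stage (horizontal axis), for actin, ubiquitin, gapdh and the poly-A controls dap and thr. Each point is an array, the 3′ sets of actin before MAN and of gapdh throughout lay under 5, and actin moved from -2.45 to -1.61 before MAN to 3.04 to 3.33 in MAN.

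None of the other wheat control transcripts moved as actin did. Over the 21 other wheat control sets the change from IP to MAN ran from -7.53 to 1.72, with a median of -0.02. The 3 ubiquitin sets changed by -0.02 (3′), -0.18 (middle) and -0.54 (5′). The sucrose synthase and G-6-PDH sets had measured changes of -2.78 to -7.53, some against sets under 5 in MAN. These values stand beside those of actin as a description, because the actin sets were chosen for this contrast.

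Changes between the stages before MAN were tested. The sets were chosen for standing far higher in MAN than in all earlier stages, so a lack of change before MAN is not independent of that choice. Each stage was compared with the next up to IP, and IP with the first 4 stages averaged. With 4 sets and 6 comparisons, 0 of 24 tests passed in limma (adjusted p under 0.05 over all 61290 rows), and 6 had an unadjusted p under 0.05. The methods' t-test gave 0 after adjustment and 5 before it. Of all rows it called 0.00163% between PM and LP, 0.956% between LP and DA and 0.609% between DA and TT. It called 2.82% between TT and T, 4.80% between T and IP and 23.3% between IP and the first 4 stages. With so few calls in the early comparisons, its 0 says little about actin. The share of all rows with an unadjusted p under 0.05 was not counted for either test. Over all rows limma called 5.90% of probe sets between PM and LP, 4.56% between LP and DA, 2.62% between DA and TT, 6.20% between TT and T, 17.2% between T and IP, and 31.3% between IP and the mean of the first 4 stages. In this fit the 95% intervals of the 24 actin changes all lay between -0.53 and 0.65 on the log2 scale. A doubling or halving, which is 1 on this scale, was outside each of them in this fit. For the 3′ set, under 5 in these stages, this holds for the measured intensity only. Scaled to the hybridization controls, the 5′ change from DA to TT was 0.63. Intervals were not computed there, and the SE was larger, at 0.315 against 0.119 for the 5′ change from IP to MAN. A doubling is thus not placed out of range under that scaling. In limma under that scaling, 3 of 4 sets had an unadjusted p under 0.05 for IP against the first 4 stages, and 0 passed.

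The 3′ set had its lowest stage mean in PM, 4.28 ± 0.0965 (SD, n = 3), and its highest before MAN in IP, 4.56 ± 0.0200. Ordered by mean, the stages were PM, TT, T, LP, DA, IP and MAN, and the arrays of all neighbours in this order up to IP overlapped. The stage means spanned 0.28. In developmental order, all 3 LP arrays (4.45 to 4.52) lay above all 3 PM arrays (4.17 to 4.35), with a change of 0.21 (SE 0.100, adjusted p = 0.252 from limma). The change from PM to LP was above 0 in all 4 sets, which all report on actin and are not independent. It was 0.26 in the 5′ set, whose arrays did not overlap either, 0.18 in the middle set and 0.17 in the _x set. None passed, and the share of all rows with PM and LP arrays apart was not counted.

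The middle set had stage means from 6.64 ± 0.173 in TT to 6.90 ± 0.0949 in LP (SD, n = 3), and the _x set from 5.59 ± 0.253 in TT to 5.82 ± 0.0935 in T. In both sets every pair of neighbours in the order of means overlapped before MAN. The low mean of the _x set in TT came with replicate 2, at 5.32, against 5.61 and 5.83 for the other arrays.

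The 5′ set varied most before MAN, and its stage means spanned 0.40. It was at 6.48 ± 0.0242 (SD, n = 3) in LP, 6.20 ± 0.134 in DA, 6.60 ± 0.167 in TT, 6.48 ± 0.136 in T and 6.24 ± 0.0817 in IP. All TT arrays lay above all DA arrays, and all T arrays above all IP arrays. The share of all rows apart in these comparisons was not counted. The change from DA to TT was 0.40 (SE 0.119, adjusted p = 0.0741 from limma) and that from LP to DA was -0.29 (SE 0.119, adjusted p = 0.219). With array weights both passed, at 0.39 (adjusted p = 0.00253) and -0.34 (adjusted p = 0.00786), and in no other alternative did they pass. Over these alternatives the adjusted p ran from 0.00253 to 0.998 for DA to TT and from 0.00786 to 0.9999 for LP to DA. From DA to TT the 3′ set changed by -0.10, the middle set by -0.03 and the _x set by -0.11. The poly-A controls stood at 7.30 to 7.54 in DA and at 6.34 to 6.40 in TT, and across the 18 arrays their mean had a Pearson r of -0.479 with the 5′ set and 0.362 with the 3′ set. Their part in the 5′ values was not tested.

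**Figure D4:**
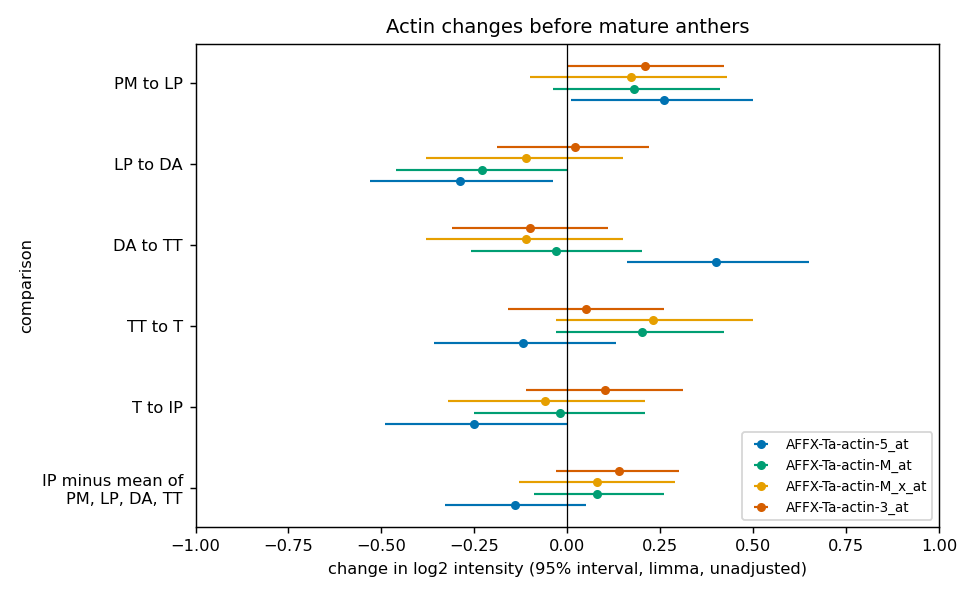
Change in log2 intensity (horizontal axis) of each actin probe set in the 6 comparisons before MAN (vertical axis). Points are limma estimates and bars their 95% intervals without adjustment, which reach from -0.53 to 0.65.

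Among themselves the sets moved together when MAN was included. Over the 21 arrays their pairwise Pearson r was 0.990 to 0.999, which rests on the 3 MAN arrays. Over the 18 arrays before MAN it was 0.755 between both middle sets, 0.579 between the 3′ set and the _x set, 0.353 between the 3′ set and the middle set, and 0.0517 to 0.0817 for the 5′ set with each of the others. The arrays share amplification and normalization, and the values give no p.

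Many transcripts share the pattern. Of 4226 non-control probe sets whose stage means spanned at least 8-fold, 1094 had an r of at least 0.95 with the mean of the 4 actin sets over the 21 arrays, and over the 18 arrays before MAN none did (the highest r was 0.799). The 5 highest over the 21 arrays were Ta.4344.1.A1_at (r = 0.9994), TaAffx.32438.1.S1_at, Ta.11694.1.A1_at, Ta.11190.1.A1_at and Ta.25271.1.S1_at (r = 0.999 each). None of them has a gene symbol in the annotation used here. Only 1 of them was also among the 5 highest over the 7 stage means. Over the 18 arrays before MAN it was 0, so their order is not read as closeness to actin. Ta.4344.1.A1_at had a level of 7.02 in IP and of 14.31, 14.25 and 14.38 on the MAN arrays, and Ta.11694.1.A1_at went from 3.41 to 13.14, 13.05 and 13.11. Among the 39 of the 1094 with a symbol, the nearest were LOC780653 (Ta.11124.1.A1_at, r = 0.998, rank 52), LOC543126, LOC606352, LOC543019 and LOC543456 (r = 0.998 each), for which no name is given. LOC780653 was at 3.58 in IP and 12.86 in MAN.

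No other probe set matched an actin name in GEO's annotation of the array, where 1273 sets have a single symbol and 200 a name or synonym. Of the genes that act on actin, profilin, which binds actin monomers, has 2 probe sets of 1 gene, LOC543315. Both were bright throughout. Ta.5057.1.S1_x_at was at 9.93, 10.13 and 9.97 on the IP arrays and 10.55, 10.29 and 10.42 on the MAN arrays. Ta.5057.3.A1_at was at 13.14, 13.68 and 13.78 in IP and 13.88, 13.94 and 13.88 in MAN. In neither set did the IP and MAN arrays overlap, and the share of all rows apart in this contrast was not counted. The change was 0.41 (SE 0.147, limma adjusted p = 0.0177) for the first and 0.36 (SE 0.124, limma adjusted p = 0.0130) for the second, and both passed as higher. Scaled to the hybridization controls, the changes were -0.73 and -0.78 and both passed as lower, and neither passed without IP replicate 1 or with array medians aligned. The background share of rows called higher was 38.7%.

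Tubulin, the subunit of microtubules and the other main cytoskeletal protein, was lower in MAN in most of its sets. Of 10 tubulin probe sets of 6 genes, 8 fell from IP to MAN in limma, 1 rose and 1 did not pass, with a median change of -1.19 against 0.17 over all rows. Over all rows 25.6% were called lower. The beta-tubulin tubb1 (Ta.212.1.S1_at) fell by 3.05 (SE 0.152, adjusted p = 1.8e-15 from limma), from 12.59, 13.33 and 13.45 on the IP arrays to 10.12, 10.14 and 9.97. Tubb5 fell in each of its 4 sets, by 1.16 to 1.73, and tubb2 (Ta.1544.1.S1_at) fell by 1.49 (SE 0.128, adjusted p = 1.5e-10 from limma). The exceptions were named after their values were seen. Tubb4 (Ta.28022.1.S1_x_at) was the set that rose, with a change of 0.61 (SE 0.108, limma adjusted p = 2.4e-05), and under scaling to the hybridization controls its change was -0.53 and did not pass (adjusted p = 0.103). The alpha-tubulin TUBA fell by 0.82 in Ta.812.1.S1_x_at, while Ta.723.1.S1_at had a change of -0.08 (limma adjusted p = 0.665) with MAN arrays spread from 6.63 to 7.55, and a change of -1.23 (adjusted p = 2.8e-04) under that scaling.

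**Figure D5:**
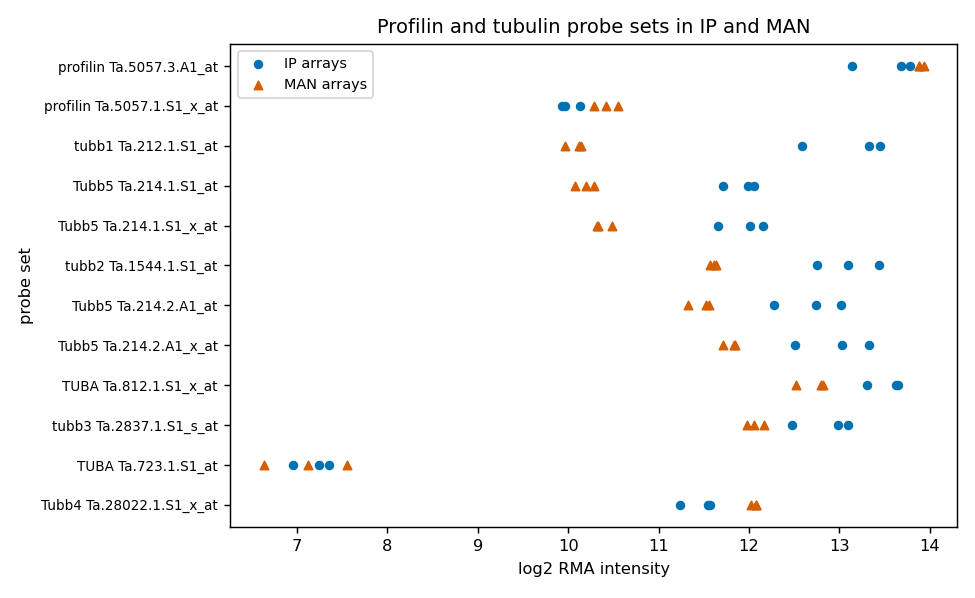
Log2 RMA intensity (horizontal axis) of the 2 profilin and 10 tubulin probe sets (vertical axis) on the 3 IP arrays (circles) and the 3 MAN arrays (triangles). In tubb1 the MAN arrays lay at 9.97 to 10.14 and the IP arrays at 12.59 to 13.45.

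Markers of other anther cells moved with the same contrast, in which 38.7% of all rows were called higher and 25.6% lower. All 4 raftin sets, expressed in the tapetum, were lower in MAN, and their summed intensity went from 32011.3 to 43627.6 on the IP arrays to 1125.7 to 1552.0 on the MAN arrays. Of 5 sets of the photosynthesis genes PRK, PsbP and FBP, taken as markers of the green anther wall, 4 were lower and 1 higher. Their sums were 8459.4 to 9907.1 in IP and 662.5 to 854.5 in MAN, although the paper describes its mature anthers as still green. The higher set, FBP (TaAffx.106041.1.S1_at), had a change of 0.97 (SE 0.234, limma adjusted p = 8.1e-04), which became -0.17 (adjusted p = 0.605) under control scaling. All 3 sets matched by the mature pollen list, the profilin sets and the granule-bound starch synthase GBSS, were higher in MAN than in IP. Their sums were 9993.8 to 15137.2 in IP and 16685.0 to 17195.5 in MAN. Sucrose synthase was also on that list, but no set outside the controls matched its name. Its control sets went the other way, by -5.99 (3′), -7.04 (middle) and -2.78 (5′). The last 2 were under 5 in MAN, at 4.58 and 3.90. The profilin sets alone had sums of 9972.9 to 15109.5 and 16457.1 to 16920.1. Profilin was already bright before meiosis, with means of 9.96 and 13.93 in PM against 10.42 and 13.90 in MAN. GBSS (Ta.2795.1.S1_a_at) went from 4.59 to 7.91, a measured rise of 3.31 from a level under 5. Scaled to the hybridization controls, its rise was 2.17. Both calls of profilin in this list carry the limits given above: with GBSS alone higher, the count was 1 without IP replicate 1, with medians aligned or with array weights, and scaled to the hybridization controls it was 1 higher and 2 lower. The part of cell makeup in the rise of actin was not tested.

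The median of all rows was 5.57 to 5.71 per array. The 13 hybridization control sets, spiked in at the last step, had means of 11.66 to 11.84 in MAN, and IP replicate 1 stood apart at 9.64 from the remaining 10.65 to 11.40. Scaling to them moved the median change of all rows from IP to MAN from 0.166 to -0.979, and gave a change of 7.69 for the 3′ set, 4.79 for the middle set, 5.07 for the _x set and 2.81 for the 5′ set. Without IP replicate 1 and without that scaling, the change was 8.82 for AFFX-Ta-actin-3_at, 5.92 for AFFX-Ta-actin-M_at, 6.12 for AFFX-Ta-actin-M_x_at and 3.91 for AFFX-Ta-actin-5_at.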

How the data were processed

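The Methods state that anther RNA was amplified in 2 rounds, labelled and hybridized to 21 Affymetrix arrays. The authors normalized the data with RMA and analysed them in Acuity 4. The deposited intensity values are linear, so they were transformed to log2 first. The number of arrays limits the precision. Values of 61290 probe sets were fitted with limma 3.58.1 (R 4.3.3) in 1 model with a mean per stage, whose moderated variance had 14 residual and 10.5 prior degrees of freedom, and p was adjusted by Benjamini-Hochberg over all rows. The study's Student's test is called the methods' t-test. The members and lists were chosen with earlier results of these data known.

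The 4 members, lists of actin, actin-binding, tubulin and marker genes, the 5 nearest patterns and the other wheat controls were named by rule. The list of other actins matched none, and up to 4 sets of a list were named. No probe set was left out, although the study set some aside. The fit was tested on simulated data. Alternatives were other tests, scalings, array weights, an offset of 16, filters, the replicate number as a block and each array left out. Summaries used pandas 2.3.3, numpy 2.4.6 and scipy 1.17.1, and plots matplotlib 3.10.9, under Python 3.11.15.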

Additional observations from a re-analysis of the deposited data

How the results depend on the processing

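Before MAN, 458 of 460 single actin values stayed on the same side of the threshold under the alternatives. They are refits of the same 24 tests. Some alternatives called few rows at all, down to 0.00163% for PM to LP, so the count does not measure robustness. Leaving out any array of the compared stages gave 0 calls in each of the 6 comparisons. Leaving out IP replicate 1 also gave 0 in those that do not involve IP (added after the data were seen). With array weights 1 of 4 sets was called from LP to DA and 1 from DA to TT. The median actin change from IP to MAN was 6.07, and 6.12 against the other 6 stages. Scaling to the 13 hybridization controls gave 4.93 and 5.30, and all 27 of them (added after the data were seen) 4.66 and 5.10. With log2(intensity + 16) the changes were 5.80 and 5.84, and the measured 3′ minus 5′ shift of 4.88 became 4.40. Leaving out single arrays gave 6.02 to 6.16, 6.06 to 6.21 and, for the shift, 4.82 to 4.96.

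The 2 calls of profilin as higher in MAN became 1 in the methods' t-test, with limma on IP and MAN only and without MAN replicate 1, and 0 with medians aligned, array weights, either scaling to controls or without IP replicate 1. Single arrays left out gave 0 to 2 higher and 0 lower. Both scalings gave 2 lower. For tubulin both scalings gave 0 higher, and single arrays left out gave 1 higher and 8 lower. Without the MAN arrays 0 probe sets had an r of at least 0.95. The share of all rows called ranged over the alternatives from 0.00163% to 9.25% for PM to LP, 0.0685% to 16.2% for LP to DA, 0.193% to 11.1% for DA to TT, 0.906% to 16% for TT to T, 3.90% to 25.6% for T to IP, 17.8% to 44.1% for IP against the first 4 stages and 43.4% to 90.1% for IP to MAN.

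Replicate numbers name technical arrays. Arrays of 1 number in different stages had a correlation of deviations of -0.387 to 0.392 (median 0.0101). For arrays of different numbers it was -0.327 to 0.347 (median 0.000352), much the same range. Of the 21 arrays, 11 correlated best, on average, with arrays of their own number, with 3 numbers to match. The count to be had without any pairing was not computed. With the replicate number as a block, 0 actin calls were made before MAN and 39397 rows against 39383 differed between IP and MAN.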
